A study of Arabidopsis thaliana with 24 samples.

Results

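The response of shoots to 7 days of Dex was compared between the EXPA1 OE line and wild type (WT) as a difference of differences, the genotype by Dex interaction. For each gene, the log2 change from no Dex to Dex in WT was subtracted from the same change in the EXPA1 OE line. A positive value means that Dex moved the gene further up, or less far down, in the line than in WT, so that effects of Dex shared by both genotypes and differences between the genotypes that Dex did not alter both cancel. The contrast used 16 of the 24 libraries of the series, 4 biological replicates in each of 4 groups, and 21180 of the 33602 genes in the table had enough counts to be tested.

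The study examined shoots of 7-day-old Arabidopsis thaliana seedlings by RNA-seq. The 4 groups were WT (Col-0) without Dex, WT grown on Dex for 7 days, the EXPA1 OE line 8-4 without Dex and the EXPA1 OE line 8-4 grown on Dex for 7 days. The 8 libraries taken after 3 h of Dex are not part of the contrast. In the line, Dex, a synthetic glucocorticoid, activates a transcription factor fused to the glucocorticoid receptor, which is made under the RPS5A promoter of dividing and young cells and drives an added EXPA1. A single line represents the genotype, the line without Dex carries the same transgenes, and reads of the added and the endogenous EXPA1 were counted together. Total counts ran from 33618183 to 82187324 across the libraries. The line on Dex held 33618183 to 39958004, a range that overlapped that of the line without Dex (34233834 to 66479924). All WT libraries were deeper than the line on Dex, at 56246439 to 82187324 without Dex and 58134054 to 79909599 on Dex. On Dex, depth and genotype therefore went together. The leaf gene RBCS1A, for the small subunit of Rubisco, stood at 18815 to 29746 counts per 1000000 counts of the scaled library (CPM) in all 16 libraries, as shoot tissue would give.

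Expansins are proteins of the cell wall (CW) that let cellulose and matrix polymers slip past each other without cutting them. Like other wall proteins they enter the endoplasmic reticulum (ER), where chaperones fold them before vesicles carry them to the surface. When unfolded proteins build up there, sensors such as IRE1 and bZIP28 start the unfolded protein response (UPR), which raises the genes of folding, quality control and export.

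EXPA1 (AT1G69530, chromosome 1, 26141836 to 26143500 of TAIR10) was at 200, 219, 596 and 440 CPM in replicates 1 to 4 of WT without Dex, and at 404, 499, 361 and 280 CPM in WT on Dex. The EXPA1 OE line held 376, 419, 431 and 477 CPM without Dex and 15659, 14025, 10911 and 12375 CPM on Dex. All 4 induced libraries lay above the other 12, and the line without Dex overlapped both WT groups. The log2 interaction was 4.87 (standard error 0.42), with an adjusted p of 4.65e-06 from the quasi-likelihood test of edgeR. EXPA1 took 1.15% to 1.58% of all counts in the induced libraries.

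Across the genome 687 genes were called higher for the interaction (3.24% of the genes tested) and 181 lower (0.855%), at an adjusted p under 0.05 and a log2 value of at least 1 in size. Without the fold threshold 2179 genes passed, and 5255 genes had an unadjusted p under 0.05. The 4 simple comparisons came from the same fit and share libraries with the interaction, so their values are set side by side only. Dex changed 1235 genes up (5.83%) and 284 down (1.34%) in the EXPA1 OE line. In WT it changed 1 gene up (0.00472%) and 2 down (0.00944%), with 13 genes past the adjusted p alone, 1849 at an unadjusted p under 0.05, and 23 called by DESeq2. On Dex the line had 564 genes above WT (2.66%) and 512 below (2.42%), and without Dex it had 19 above (0.0897%) and 462 below (2.18%).

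The 3 genes that Dex changed in WT changed in the same direction in the line. They were chosen for this description after their values were seen. CYP71B26, a cytochrome P450, rose from 4.46 to 5.47 CPM without Dex to 10.2 to 11.2 CPM on Dex in WT, a log2 change of 1.09 against 1.03 in the line. NAMT1, a nicotinate methyltransferase, fell by 1.29 on the log2 scale in WT and by 1.46 in the line. GA20OX2, a gibberellin biosynthesis oxidase, fell by 1.00 in WT and by 0.74 in the line, where it was not called. Its interaction was 0.27 (standard error 0.20, adjusted p = 0.44, edgeR).

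Replicates 1 and 2 stood apart from replicates 3 and 4 within both WT groups and the line on Dex, which bears on all results that follow. In the line without Dex replicates 2 and 3 were as alike as replicates 1 and 2 (Spearman correlation of 0.997 for each). The mean log2 level of the 2 pairs differed by at least 1 for 9.58% of genes in the line on Dex, 1.65% in the line without Dex, 5.49% in WT on Dex and 6.01% in WT without Dex. The labels do not say what the pairs share, and the 2 WT groups did not match by number in their deviations from the group means. Replicate 3 without Dex correlated at 0.457 with replicate 2 on Dex and at -0.377 with replicate 3 on Dex. Replicate 1 without Dex correlated at 0.349 with replicate 3 on Dex and at -0.0677 with replicate 1 on Dex. A fit to 1 pair of replicates can therefore set unlike libraries against each other. With replicates 1 and 2 alone 379 genes were called higher and 412 lower for the interaction, and with replicates 3 and 4 alone 1779 and 843. For the Dex effect in WT the pairs went against each other. Replicates 1 and 2 gave 547 calls and replicates 3 and 4 gave 1160, of which 9 were shared in the same direction and 194 in opposite directions, so that the full set left 3. The WT libraries enter every interaction, and for many of the genes and lists below the values of both pairs are given.

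Of the 687 genes called higher, 280 were also called from replicates 1 and 2 alone, 607 from replicates 3 and 4 alone and 239 from each. The sign was the same in both pairs for 683 of the 686 with a value in each, with medians of 1.31 and 1.84 on the log2 scale. These pairs are taken from the libraries that chose the genes, so the shared sign is a description. Of the 181 genes called lower, 80 were called from replicates 1 and 2, 162 from replicates 3 and 4 and 67 from each, with medians of -1.15 and -1.63.

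**Figure D1:**
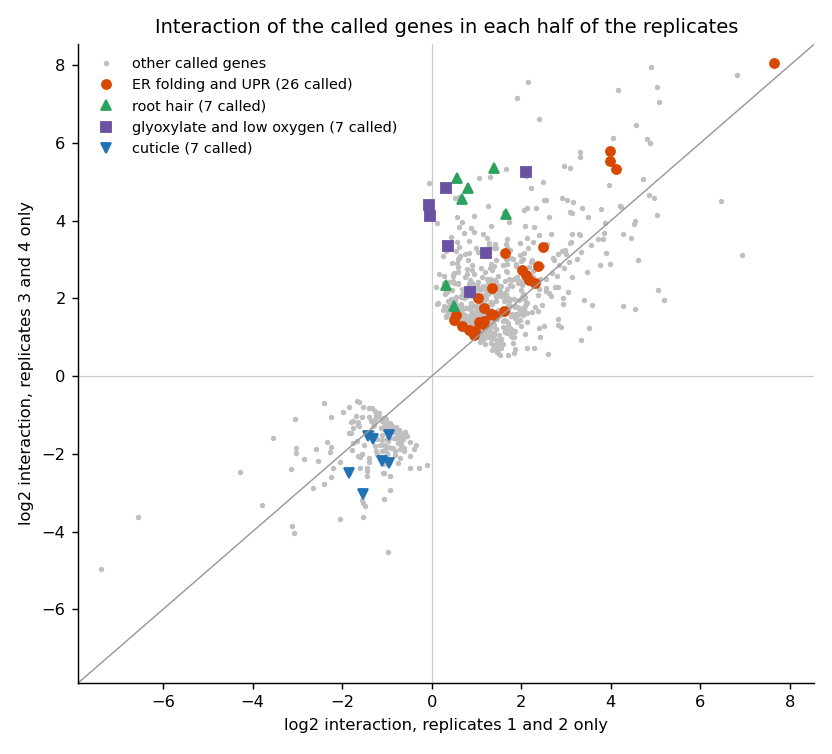
Log2 interaction from replicates 1 and 2 (x axis) against that from replicates 3 and 4 (y axis), 1 point per called gene, with genes of ER folding, root hairs, the glyoxylate and low oxygen list and the cuticle in colour. ER genes lie close to the diagonal in the upper right, while called root hair genes lie far above it, with larger values in replicates 3 and 4 than in replicates 1 and 2.

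The 868 called genes fell into a few patterns of the 4 groups. Among the 687 higher genes, Dex raised 579 (84.3%) in the line by the same threshold, and its effect in WT was called for 0. The line stood above WT on Dex, with no call without Dex, for 346 genes (50.4%). For 145 genes (21.1%) the line without Dex lay below WT, and of these 127 no longer differed by the threshold on Dex, 6 were still below and 12 were above. For 195 genes (28.4%) neither genotype comparison passed the threshold. Over the 687 genes the median log2 value was 1.49 for Dex in the line, -0.11 for Dex in WT, 1.07 for the line against WT on Dex and -0.49 without Dex.

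Among the 181 lower genes, 118 (65.2%) fell in the line on Dex, and 102 (56.4%) lay below WT on Dex with no call without Dex. Their medians were -1.14 for Dex in the line and 0.26 for Dex in WT. All 4 induced libraries lay above the other 12 in 392 of the 687 higher genes (57.1%, against 7.07% of all genes) and below them in 101 of the 181 lower genes (55.8%, against 5.10%). The groups therefore overlapped in over 40% of the called genes, and 499 of the 868 had a mean of at least 2 CPM.

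**Figure D2:**
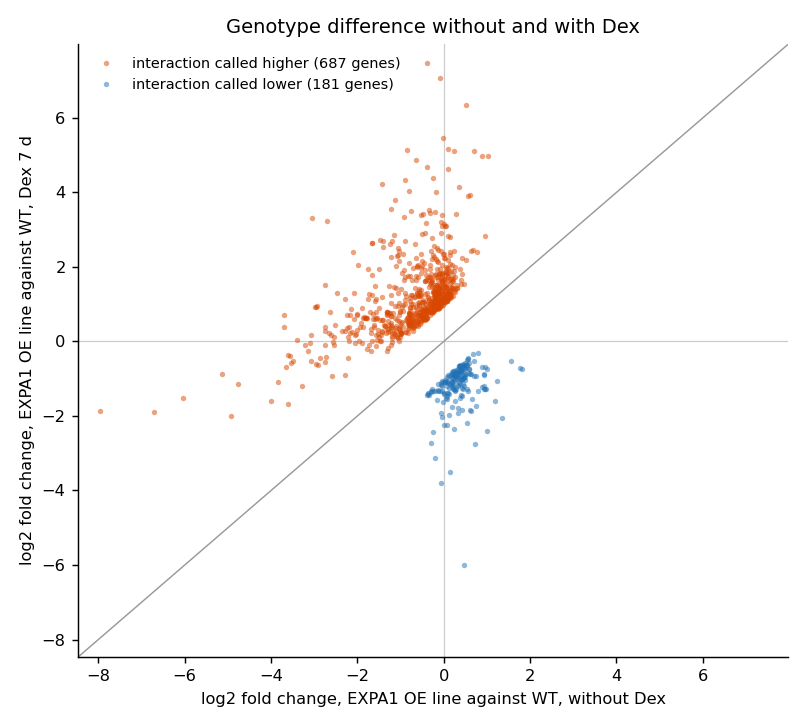
Difference between the EXPA1 OE line and WT without Dex (x axis, log2) and on Dex (y axis, log2) for the 868 called genes, with called higher and lower genes coloured. The distance of a point from the diagonal is the interaction. Many higher genes lie near 0 on x and above 0 on y. Over the 687 higher genes the median on x is -0.49, and 145 were called below WT without Dex.

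Over all tested genes 3.24% were called higher and 0.855% lower, and these shares stand beside the count of each list below. Genes of protein folding in the ER and of the UPR made up the clearest group. Of 41 members tested, 26 were called higher and 0 lower, with a median log2 interaction of 1.19 against 0.02 over all tested genes, and 40 of the 41 values were above 0. Replicates 1 and 2 alone gave 21 calls and a median of 1.01, and replicates 3 and 4 gave 29 and 1.41. The summed level of the 41 genes was 2383 to 2658 CPM in WT without Dex, 2461 to 2663 in WT on Dex, 2212 to 2307 in the line without Dex and 3869 to 7518 in the line on Dex. The induced libraries lay above the other 12, with a spread of almost 2-fold among its 4 libraries.

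The largest interaction among genes with a mean of at least 2 CPM was that of SEC31A (AT1G18830, chromosome 1, 6489309 to 6494218), a coat protein of the COPII vesicles that leave the ER. It was at 1.19, 1.13, 0.443 and 1.37 CPM in WT without Dex, at 0.746, 0.583, 1.40 and 1.26 in WT on Dex and at 1.28, 0.432, 0.828 and 0.545 in the line without Dex. In the line on Dex it was at 79.3, 141, 208 and 295 CPM, far above every other library. Its log2 interaction was 7.87 (standard error 0.66, adjusted p = 3.91e-06, edgeR).

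BIP3 (AT1G09080, chromosome 1, 2929217 to 2931841), the stress-induced member of the BiP family of ER HSP70 chaperones, stood at 0.744 to 1.61 CPM in the other 12 libraries. The induced libraries held 21.4, 29.0, 42.4 and 78.8 CPM. Its log2 interaction was 5.06 (standard error 0.53, adjusted p = 3.03e-05, edgeR). BIP1 and BIP2, the constitutive members, rose less, with log2 interactions of 1.54 and 1.55, from 158 to 281 CPM in the other libraries to 333 to 795 CPM. The sequences of BIP1 and BIP2 are nearly identical, so the split of reads between them is uncertain.

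The co-chaperone ERDJ3A had an interaction of 4.85 (standard error 0.39), at 30.7 to 90.4 CPM in the induced libraries and 1.96 to 5.8 in all others. TIN1, a gene known for its response to tunicamycin, an inhibitor of protein glycosylation, had one of 4.92 (standard error 0.57). The disulfide genes followed with smaller values. ERO1, the oxidase that feeds protein disulfide isomerases, had 2.66 and stood at 6.59, 7.39, 10.1 and 13.8 CPM in the induced libraries against at most 2.04 elsewhere. PDIL1-2, a disulfide isomerase, had 2.5 and stood at 129, 199, 281 and 401 CPM against at most 54.8 elsewhere.

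The transcription factors of the response were BZIP60, whose mRNA IRE1 splices, and NAC103, a target of bZIP60. BZIP60 stood at 19.1 to 25.8 CPM in the line without Dex and at 66.1, 95.2, 112 and 154 CPM on Dex, an interaction of 2.51 (standard error 0.33, adjusted p = 0.000226, edgeR). NAC103 had an interaction of 2.98 (standard error 0.36). The sensors themselves did not pass the test, with 0.44 for BZIP28, 0.28 for IRE1A and 0.01 for IRE1-1, and the lectin chaperones CRT1a and CRT1b had adjusted p-values under 0.05 with values of 0.77 and 0.90, below the fold threshold.

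UTR1 (AT2G02810) and UTR3, nucleotide sugar transporters of the ER membrane, were among the most evenly changed members. UTR1 was at 6.08 to 9.11 CPM in the other 12 libraries and at 29.5, 26.5, 31.9 and 35.7 CPM in the induced line. Its interaction of 2.38 had a standard error of 0.13 (adjusted p = 4.77e-08, edgeR), with 2.31 from replicates 1 and 2 and 2.39 from replicates 3 and 4. UTR3 had 2.35 (standard error 0.13).

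In SEC31A, BIP3, ERDJ3A, TIN1, NAC103, BZIP60 and PDIL1-2 the induced level was lowest in replicate 1 and highest in replicate 4, whereas EXPA1 was highest in replicate 1. The interaction of BZIP60 was 1.65 from replicates 1 and 2 and 3.16 from replicates 3 and 4. Each of these genes was above all other 12 libraries in every induced library.

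Genes of entry into the ER and exit from it, a list set up after the values were seen, had 6 of 29 members called higher and 0 lower. Their median interaction was 0.26, and 29 of 29 values were at or above 0. The called members outside the ER list included AT1G29310, an alpha subunit of the SEC61 channel through which proteins enter the ER. It was at 27.0 to 32.0 CPM in the other 12 libraries and at 88.0, 106, 121 and 155 CPM in the induced ones, an interaction of 2.01 (standard error 0.17, adjusted p = 4.6e-06, edgeR). AT3G60540, a beta subunit of the channel, had an interaction of 3.90, and SARA1A, a small GTPase of the SAR1 family that starts COPII coats, had 3.26 (standard error 0.70). Their induced levels were 5 to 11.0 and 2.1 to 14.1 CPM.

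Known DNA motifs of UPR genes were searched, on both strands, in the 500 bases before the start of each gene model, because the called ER genes moved together. The ERSE is CCAAT and CACG with 10 bases between them, the UPRE is TGACGTGG or TGACGTGA, and the G-box is CACGTG. The letters overlap, and 10 of the 16 ERSE matches in the called ER genes share bases with a G-box and 1 with a UPRE. An ERSE occurred in 13 of the 26 called ER genes (50.0%), in 5 of the 15 ER genes that were not called (33.3%), in 1.53% of all tested genes and in 1.09% of 33322 nuclear genes. A UPRE occurred in 8 of the 26 (30.8%), in 2 of the 15 not called (13.3%) and in 3.51% of tested genes. A G-box occurred in 14 of the 26 (53.8%), in 5 of the 15 not called (33.3%) and in 12.2% of tested genes. Among all 686 higher genes with a promoter the shares were 3.64% for the ERSE, 5.10% for the UPRE and 11.5% for the G-box. An ERSE-II, searched after the values were seen, occurred in BIP1 and BIP2 (7.69% of the 26) and in 0.124% of tested genes. A match is a run of letters and not a site shown to be bound.

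The windows below are 60 bases each, read 5′ to 3′ on the strand of the gene from the reference genome in TAIR10 coordinates, with the match in capitals. They are shown because they belong to genes whose levels are given above, namely an ERSE of BIP3 (chr1:2931986-2932045, minus strand), PDIL1-2 (chr1:29126563-29126622, plus strand) and UTR3 (chr1:4913177-4913236, minus strand), and a UPRE of TIN1 (chr5:25784309-25784368, plus strand) and BIP2 (chr5:16810647-16810706, minus strand). BIP3 has 2 ERSE matches and TIN1 has 3 UPRE matches, of which 1 each is shown.
BIP3: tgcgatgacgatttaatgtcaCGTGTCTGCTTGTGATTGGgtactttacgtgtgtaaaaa
PDIL1-2: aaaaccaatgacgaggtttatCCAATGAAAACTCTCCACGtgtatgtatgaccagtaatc
UTR3: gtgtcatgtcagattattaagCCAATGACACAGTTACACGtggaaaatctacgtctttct
TIN1: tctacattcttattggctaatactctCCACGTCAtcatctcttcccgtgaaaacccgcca
BIP2: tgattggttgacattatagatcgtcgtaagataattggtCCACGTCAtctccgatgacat
In BIP3 the match shown lies on the strand opposite to the gene, in PDIL1-2 and UTR3 on the same strand. The ERSE matches of the called ER genes began at most 277 bases before the gene start.

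**Figure D3:**
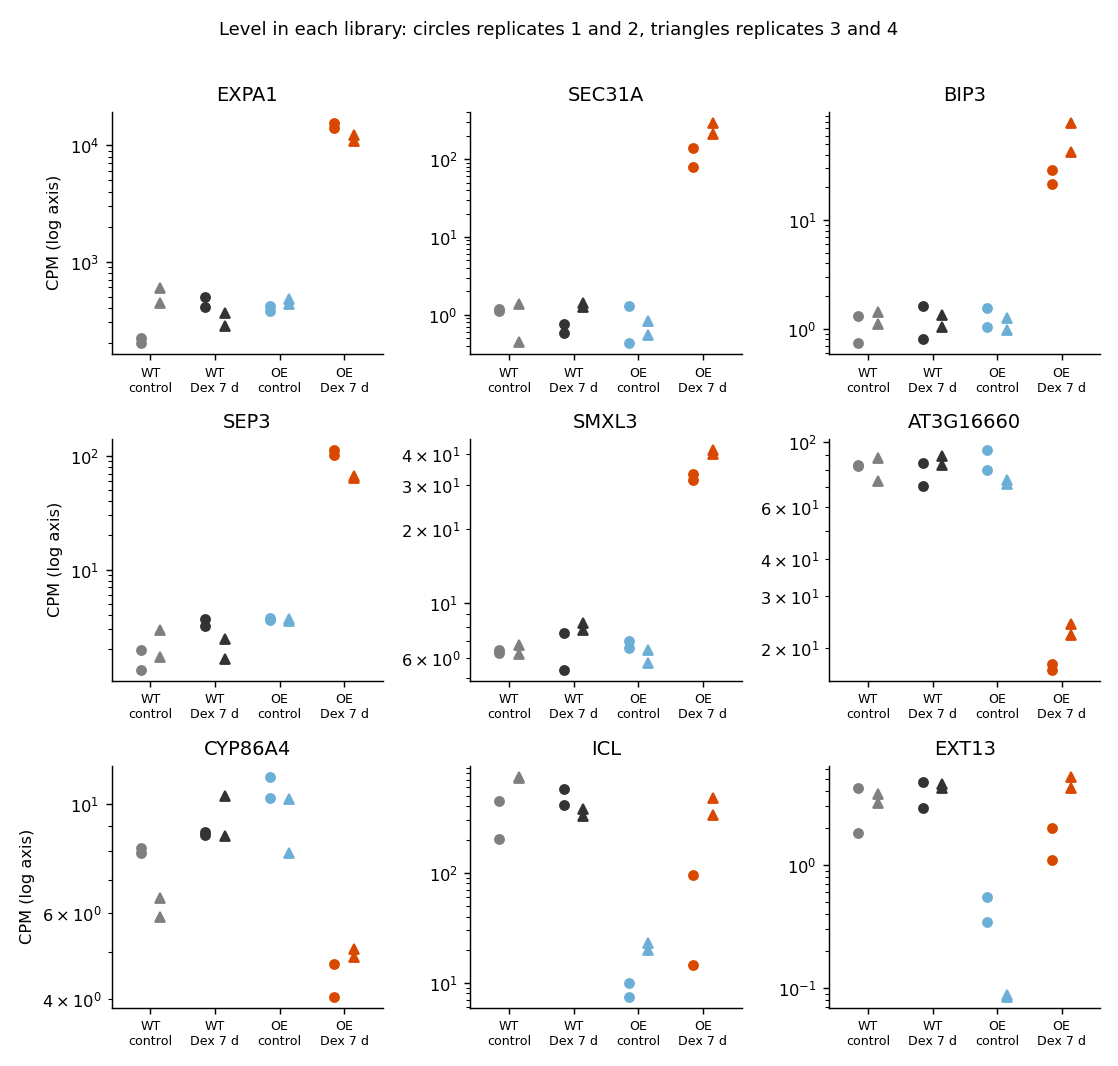
Level of 9 genes in each of the 16 libraries (CPM, log axis) by group, with circles for replicates 1 and 2 and triangles for replicates 3 and 4. EXPA1, SEC31A, BIP3, SEP3 and SMXL3 are high in all 4 libraries of the line on Dex, AT3G16660 and CYP86A4 are low there, and ICL and EXT13 are low in the line without Dex.

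Genes of floral organ identity were measured as a check for flower tissue, and 4 of 10 tested members were called higher and 0 lower, with a median interaction of 1.1 that was 2.03 in replicates 1 and 2 and 0.36 in replicates 3 and 4. They encode MADS-domain factors that specify the whorls of the flower. SEP3 (AT1G24260, chromosome 1, 8593637 to 8596105), a cofactor of the other floral MADS proteins, stood at 1.32 to 3.75 CPM in the other 12 libraries and at 113, 101, 67.2 and 63.9 CPM in the induced line. All 4 induced libraries were higher by over 10-fold, and the interaction was 4.09 (standard error 0.38, adjusted p = 1.1e-05, edgeR), with 3.77 and 4.31 from the 2 pairs of replicates. AG, the gene of stamen and carpel identity, was at 2.28, 2.2, 2.14 and 2.06 CPM against 0.0218 to 0.151 elsewhere, an interaction of 4.53 (standard error 0.66, adjusted p = 0.000495, edgeR).

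PI and SHP2, for petals and stamens and for the carpel margin, were called at under 1 CPM in every library, and their calls were lost without any 1 of 13 and of 12 libraries, with adjusted p-values of 0.0551 to 0.0814 and of 0.0560 to 0.0932 (edgeR). AP1, AP3, STK, CAL and SEP2 had too few counts to be tested. The summed level of the 10 tested genes was 93.4 to 144 CPM in the induced line and 20.1 to 30.2 CPM elsewhere, with most of the difference from SEP3. A list of 19 Polycomb genes, whose complexes keep floral genes off in leaves, had 0 called and values from -0.29 to 0.29. With 3.24% of all tested genes called higher and 0.855% lower, few calls would be met in a list of this size. The activity of the complexes was not measured, and a link to the floral genes was not tested.

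Among genes of flowering time, 2 of 32 were called higher and 3 lower, with a median of -0.22 (0.00 and -0.48 in the pairs). With 3.24% of all tested genes called higher and 0.855% lower, these few calls are not read as a change of the list. TFL1, which keeps the inflorescence meristem indeterminate, stood at 1.66, 1.76, 2.17 and 2.65 CPM in the induced line and at 0.0185 to 0.299 CPM elsewhere, an interaction of 3.35 (standard error 0.61, adjusted p = 0.00264, edgeR). CO, the day-length regulator of FT, was at 2.57 to 4.97 CPM against at most 1.44 elsewhere (1.51, standard error 0.38). SNZ, an AP2-type repressor of flowering, was at 2.51, 4.64, 3.82 and 5.01 CPM in the induced line and at 11.1 to 13.5 CPM in every other library, an interaction of -1.42 (standard error 0.20, adjusted p = 0.00039, edgeR). SPL9 and SPL15, which promote the adult phase, had -1.24 and -1.12. The call of SPL9 was lost with any 1 of 6 libraries left out (adjusted p between 0.0515 and 0.0648, edgeR) and its induced libraries overlapped WT without Dex, and SPL15 was at -0.99 without replicate 1 of the line on Dex.

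Of 26 genes of the shoot meristem and organ boundaries, 2 were called higher and 0 lower, with a median of -0.08. The share called higher over all tested genes was 3.24%. WOX14, a homeobox gene of the vascular cambium, stood at 0.104 to 0.436 CPM in the other libraries and at 9.67, 10.2, 9.54 and 8.32 CPM in the induced line, an interaction of 3.95 (standard error 0.36). Among the 868 called genes it was the 1 called above WT both without Dex (1.03) and on Dex (4.98). NAC1, a NAC factor known from auxin signalling in roots, was at 29.6 to 38.6 CPM against 3.23 to 4.58 elsewhere (3.07, standard error 0.18, adjusted p = 1.2e-07, edgeR).

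Phloem genes had 3 of 30 members called higher and 0 lower, beside 3.24% higher over all tested genes. Their median was 0.40, and both pairs of replicates gave 0.41. The phloem carries sugar from leaves through sieve elements and their companion cells. SMXL3 (AT3G52490, chromosome 3, 19455699 to 19458919), required to begin phloem formation, was at 5.38 to 8.28 CPM in the other 12 libraries and at 33.3, 31.4, 40.2 and 41.7 CPM in the induced line (2.33, standard error 0.18, adjusted p = 1.9e-06, edgeR). SWEET11, a sucrose exporter of phloem parenchyma, was at 143 to 185 CPM and at 405, 347, 416 and 438 CPM (1.23, standard error 0.10). NAC086, which drives loss of the nucleus in sieve elements, had 1.19 at under 2 CPM, and SEOR1, a filament protein of sieve elements, had 0.94 (adjusted p = 4.2e-05, edgeR), under the fold threshold. In whole shoots a larger share of cells of a type and more RNA per cell cannot be told apart.

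Gibberellin genes had 2 of 29 members called higher and 0 lower, with a median of 0.17, beside 3.24% higher over all tested genes. GAMT2 (AT5G56300), a methyltransferase that inactivates gibberellins, was at 0.0258 to 0.189 CPM in the other 12 libraries and at 14.6, 10.6, 10.7 and 12.5 CPM in the induced line, an interaction of 5.82 (standard error 0.59, adjusted p = 2.3e-05, edgeR). GASA1, a gibberellin-regulated gene, had 1.22, with induced levels of 188 to 390 CPM against at most 150 elsewhere, and its call was lost without any 1 of 7 libraries.

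Several genes of other functions rose from a few CPM or less in the induced line alone. AT3G19430, annotated as related to late embryogenesis abundant proteins and counted here among proline-rich wall proteins, was at 101, 88.4, 140 and 192 CPM there and at most at 1.76 CPM elsewhere (7.16, standard error 0.69). PEN1 (AT4G15340), a triterpene synthase, was at 8.48 to 20.7 CPM against at most 1.20 (5.23, standard error 0.45). HIPP27, a heavy metal-associated isoprenylated plant protein, was at 12.8 to 22.4 against at most 1.13 (5.53, standard error 0.55). UMAMIT14, an amino acid exporter, was at 9.79 to 15.4 against at most 1.94 (4.00, standard error 0.24), and AT3G55700, a UDP-glycosyltransferase, at 4.82 to 17.2 against at most 0.519 (5.07, standard error 0.56). AT4G21730 also rose, to 18.0 to 40.0 CPM from at most 1.08 (5.49, standard error 0.43).

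The smallest adjusted p-values belonged to genes with more even changes. Among the 12 smallest, the log2 values ran in size from 1.69 for DJ1A to 4.00 for UMAMIT14. AST91 (AT1G23090), a sulfate transporter, was at 27.6 to 34.9 CPM in the other 12 libraries and at 108, 99.5, 101 and 103 CPM in the induced line. Its interaction of 1.86 had a standard error of 0.07 (adjusted p = 1.1e-09, edgeR), the smallest p of all genes, and was 1.86 and 1.81 in the 2 pairs of replicates. The alpha dioxygenase gene ALPHA DOX2, an enzyme of oxylipin synthesis, had 1.96 (standard error 0.09), with 62.2 to 68.8 CPM against 15.1 to 19.2. ACC2, a plastid acetyl-CoA carboxylase of fatty acid synthesis, had 2.71 (standard error 0.15), with 58.9 to 87.4 CPM against 11.1 to 17.0. AT3G05640, a protein phosphatase 2C, had 3.14 (standard error 0.16), and DJ1A, a glyoxalase family protein, had 1.69 (standard error 0.11). In these 5 genes no induced library overlapped any other library.

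Phenylalanine and glucosinolate metabolism gave a few calls, beside 3.24% of all tested genes called higher and 0.855% lower. PAL3, a phenylalanine ammonia-lyase, was at 147, 171, 200 and 238 CPM in the induced line and at 32.3 to 44.1 elsewhere (2.25, standard error 0.17), and it was the 1 called higher among 28 genes of flavonoid synthesis. EGL3, a regulator described below with the trichome genes, was the 1 called lower, and 17 of the 28 values were below 0. The median interaction of the 28 genes was -0.1. The line already lay below WT without Dex, at a median log2 difference of -1.1 with 1 member called lower. On Dex that median was -1.25, with 10 members called lower. Of 26 genes of aliphatic glucosinolates, the defence compounds made from methionine, 2 were higher, IMS2 (2.66, standard error 0.37) and CYP79F2 (1.91, standard error 0.39), with induced levels of 39.5 to 106 and 20.0 to 58.2 CPM. Of 25 genes of indole glucosinolates, made from tryptophan, 3 were higher, SOT16, MYB51 and CYP83B1, at 1.00 to 1.16.

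Genes of the CW moved in both directions, with few calls in each family beside 3.24% higher and 0.855% lower over all tested genes. Of 24 expansin genes tested, 2 were called higher and 2 lower, EXPA1 among the higher, with a median of 0.06 (-0.43 and 0.38 in the pairs of replicates). EXPA2, an expansin of germinating seeds, was at 2.23, 0.0895, 2.34 and 1.08 CPM in WT without Dex and at 2.22, 2.44, 4.16 and 5.51 CPM in the line on Dex. Those groups overlapped, and the line without Dex, at 0.136 to 0.202 CPM, was below WT by 3.06 on the log2 scale, so that both genotype differences entered its interaction of 6.38 (standard error 0.93, adjusted p = 0.00048, edgeR). With replicates 1 and 2 alone the adjusted p was 0.056 (edgeR).

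EXPA8, called lower, was at 17.1, 20.6, 18.4 and 20.5 CPM in the induced line and at 42.6 to 87.3 CPM in all others (-1.09, standard error 0.23), although it was at -0.97 or -0.98 without replicate 1 or replicate 2 of WT without Dex. EXPA11 was at 20.5 to 33 CPM in the induced line and at 20.3 to 52.8 elsewhere, so the groups overlapped (-1.23, standard error 0.33), and its call was lost with any 1 of 6 libraries left out (adjusted p between 0.0504 and 0.0541, edgeR). EXPA15, EXLB1, EXPB1 and EXPB3 were lower in the line than in WT on Dex, by 1.06 to 1.52 on the log2 scale. None of them passed the interaction test (adjusted p from 0.072 to 0.35, edgeR). EXLA1, higher than WT on Dex by 1.21, did not pass it either (adjusted p = 0.375, edgeR).

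XTH enzymes cut and rejoin xyloglucan, and 2 of 29 were called higher and 1 lower (3.24% and 0.855% over all tested genes). XTH10 had 1.21 (standard error 0.26) at 2.18 to 2.93 CPM in the induced line. XTH24 had 1.07, with 164, 77.2, 111 and 102 CPM in the induced line and 30.0 to 65.0 elsewhere, and its call was lost with any 1 of 12 libraries left out (adjusted p between 0.0615 and 0.102, edgeR). XTH17 had -1.47 (standard error 0.28), with -2.40 from replicates 1 and 2 and -0.70 from replicates 3 and 4. XTH15 and XTH23 were above WT on Dex by 1.37 and 1.42 but did not pass the interaction test (adjusted p = 0.144 and 0.153, edgeR). They were at -0.08 and -0.64 in replicates 1 and 2 and at 2.63 and 2.81 in replicates 3 and 4. The family differed between the pairs of replicates, with 0 higher and 6 lower in replicates 1 and 2 and 12 higher and 0 lower in replicates 3 and 4, and its median was -0.64 in the first and 0.69 in the second.

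Pectin methylesterases (PMEs), which set the charge and stiffness of pectin, were listed together with PME inhibitors. Of the 19 members tested, 2 were called higher and 0 lower. Their median was 0.28, with -0.50 in replicates 1 and 2 and 0.70 in replicates 3 and 4. Over all tested genes the shares called were 3.24% and 0.855%. PME13 was at 2.69, 2.46, 1.38 and 1.77 CPM in the induced line and at 0.0167 to 0.0872 elsewhere (4.40, standard error 0.69, adjusted p = 0.00089, edgeR). PME18 was at 50.8, 61.3, 115 and 162 CPM against 22.5 to 50.7 in all other libraries (1.95, standard error 0.38), and was at 0.95 in replicates 1 and 2 and at 2.62 in replicates 3 and 4. PME61 rose above WT on Dex by 1.03 but had an interaction of 0.97, under the fold threshold. Of 49 genes of cellulose synthesis 1 was called higher, CSLB01 at under 1 CPM, and 0 lower.

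A further set of genes had a positive interaction in which the line without Dex lay far below WT and the line on Dex was close to it. Root hair genes are the main case. Of 42 tested, 7 were called higher and 0 lower, with a median of 1.40. The line was below WT without Dex by a median of 1.57 on the log2 scale, with 12 members called, and at a median of -0.20 on Dex, with 0 called. The pairs of replicates differed, with 0 higher in replicates 1 and 2 (median -0.24) and 30 higher in replicates 3 and 4 (median 3.00). The summed level of the list did not show the gap, at 221 to 403 CPM in WT without Dex, 226 to 402 in WT on Dex, 311 to 328 in the line without Dex and 294 to 388 in the line on Dex.

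EXT13 (AT5G35190), an extensin of root hairs, was at 1.83, 4.26, 3.77 and 3.23 CPM in WT without Dex, at 2.92, 4.75, 4.23 and 4.58 in WT on Dex, at 0.553, 0.346, 0.0872 and 0.0851 in the line without Dex and at 1.09, 2.00, 5.25 and 4.21 in the line on Dex. Both WT groups and the induced line overlapped, and the line without Dex was below all of them. Its interaction was 3.18 (standard error 0.73, adjusted p = 0.012, edgeR), with 1.38 and 5.36 in the 2 pairs. RHS18, a peroxidase of root hairs, showed the same order at 0.034 to 1.33 CPM (3.24), and its call was lost with 1 of 3 libraries of the line left out (adjusted p between 0.0534 and 0.0613, edgeR). RSL2, a basic helix-loop-helix regulator of root hair growth, had 2.80 at 0.354 to 0.591 CPM in the induced line.

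Among genes of other root tissue, GPAT5 and FAR4, of suberin synthesis, were called higher, GPAT5 at 2.6 (standard error 0.65). FAR4 was at 1.34 to 3.37 CPM in both WT groups, at 0.583 to 0.885 CPM in the line without Dex and at 1.18, 1.66, 2.14 and 3.36 CPM in the line on Dex, an interaction of 1.93 (standard error 0.42). The summed level of the list was 1503 to 2356 CPM in WT without Dex, 1611 to 1946 in WT on Dex, 1102 to 1256 in the line without Dex and 992 to 1523 in the line on Dex, nearly all of it from PYK10. Root and seed genes in these libraries are values of the shoot samples as labelled, and the part of other tissue in them was not tested.

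Seed maturation genes had the lowest median of the lists for the line against WT without Dex. Of 21 tested, 16 were called below WT, at a median of -3.82, and 15 were still below on Dex, at a median of -2.32. The summed level was 257 to 516 CPM in WT without Dex, 319 to 457 in WT on Dex, 26.2 to 58.9 in the line without Dex and 31.4 to 142 in the line on Dex. One member, the oleosin gene OLEO2 of oil bodies, was called for the interaction (1.92, standard error 0.58), and its call was lost with any 1 of 12 libraries left out (adjusted p between 0.0644 and 0.0987, edgeR).

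ICL (AT3G21720, chromosome 3, 7652487 to 7656011), the isocitrate lyase of the glyoxylate cycle that turns seed oil into sugar, was at 453, 204, 749 and 726 CPM in WT without Dex and at 415, 579, 327 and 381 CPM in WT on Dex. The line held 7.47, 10.0, 20.0 and 23.2 CPM without Dex and 14.5, 96.2, 332 and 482 CPM on Dex. The line without Dex was below all WT libraries, and on Dex 2 of its libraries reached the WT range. The interaction was 4.25 (standard error 1.03, adjusted p = 0.017, edgeR), with 2.1 and 5.25 in the 2 pairs. MLS, the malate synthase of the same cycle, had 2.39, with the line at 3.97 to 8.11 CPM without Dex and 6.12, 22.0, 32.6 and 47.9 CPM on Dex, and its call was lost with any 1 of 9 libraries left out (adjusted p between 0.0582 and 0.0741, edgeR).

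ADH1, the alcohol dehydrogenase of fermentation, and HB1, a non-symbiotic haemoglobin, both known from low oxygen, parted the replicates most. ADH1 was at 3.96, 4.29, 4.95 and 4.14 CPM in the line without Dex and at 5.14, 6.04, 48.1 and 60.9 CPM on Dex, against 17.8 to 41.5 CPM in WT. Its interaction of 3.03 was -0.06 in replicates 1 and 2 and 4.40 in replicates 3 and 4, and the call was lost with any 1 of 11 libraries left out (adjusted p between 0.0631 and 0.0835, edgeR). HB1 had 0.32 and 4.84 in the pairs. In the list of glyoxylate and low oxygen genes, set up after the values were seen, 7 of 17 were called higher and 0 lower, with medians of 0.20 in replicates 1 and 2 and 3.17 in replicates 3 and 4.

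Cytosolic heat shock genes, which act on proteins outside the ER, gave 3 of 21 called higher and 0 lower, with a median of 0.98 (0.40 and 1.17 in the pairs of replicates). The median log2 change on Dex was -0.66 in WT and 0.24 in the line, with 0 and 1 members called, so the larger of the 2 medians in size was that of WT, below 0. Without Dex 11 members were lower in the line than in WT. HSFA7A, a heat shock factor, was at 12.5, 8.32, 4.97 and 6.03 CPM in the induced line and at 1.70 to 4.67 elsewhere (2.03, standard error 0.45). MBF1C, a coactivator of the heat response, had 1.47, with the induced line at 4.14 to 8.29 CPM inside the WT range, and its call was lost with any 1 of 5 libraries left out (adjusted p between 0.0501 and 0.0585, edgeR). The summed level of the list was 310 to 435 CPM in WT without Dex, 154 to 311 in WT on Dex, 121 to 187 in the line without Dex and 114 to 238 in the induced line, so that the levels of the line with and without Dex overlapped.

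ELF4, of the evening clock, and ST2A, a sulfotransferase acting on hydroxyjasmonate, lay below WT without Dex and rose on Dex in the line. ELF4 was at 0.12 to 0.202 CPM in the line without Dex, at 0.874 to 1.15 CPM in the line on Dex and at 0.452 to 1.05 CPM in WT, an interaction of 2.24 (standard error 0.38). ST2A had 1.70 (standard error 0.29), from a log2 change on Dex of 1.13 in the line and -0.57, which was not called, in WT.

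Among the genes called lower, AT3G16660 and AT3G16670, neighbours on chromosome 3 (5676829 to 5677921 and 5681419 to 5682331) in the pollen Ole e 1 and extensin family, had -2.00 (standard error 0.17) and -2.48 (standard error 0.30). AT3G16660 was at 17.6, 16.8, 24 and 22.0 CPM in the induced line and at 70.9 to 94.1 CPM in all others. AT3G16670 was at 35.1 to 52.0 CPM against 73.7 to 216. Neither overlapped, and both pairs of replicates gave values of -1.81 or lower.

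AT1G66100, a thionin of plant defence, was at 1.80, 1.89, 2.96 and 1.89 CPM against 9.91 to 17.7 elsewhere (-2.19, standard error 0.22). AT3G46490, a 2-oxoglutarate-dependent oxygenase, was at 2.07 to 2.39 against 5.53 to 8.19 (-2.1, standard error 0.13, adjusted p = 1.2e-07, edgeR). BGLU18, a beta-glucosidase of ER bodies, was at 23.5, 28.8, 47.7 and 31.8 CPM in the induced line and at 37.5 to 102 CPM elsewhere, so that replicate 3 lay inside the range of WT without Dex (-1.72, standard error 0.34). AT2G15020 had -2.25, of which 1 WT library on Dex at 63.1 CPM is part. Without that library, replicate 3 of WT on Dex, the interaction was lower in size, at -1.44, and it was still called. With 1 of 4 other libraries left out the adjusted p was 0.0501 to 0.054 (edgeR).

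Cuticle genes, a list set up after the values were seen, had 7 of 37 members called lower and 0 higher, with a median of -0.44 (-0.78 and -0.18 in the pairs of replicates), and 33 values were below 0. The cuticle is the layer of cutin and wax that epidermal cells deposit on the outside. CYP86A4, a fatty acid hydroxylase of cutin synthesis, was at 4.05, 4.72, 5.07 and 4.87 CPM in the induced line and at 5.89 to 11.4 CPM in all others (-1.45, standard error 0.18, adjusted p = 0.00014, edgeR), with -1.42 and -1.54 in the 2 pairs. CYP77A6, which adds the mid-chain hydroxyl group, was at 2.96 to 3.47 CPM against 4.45 to 9.04 (-1.43, standard error 0.18). AT5G33370, a GDSL lipase, was at 2.91 to 5.26 CPM against 5.45 to 14.2 (-2.13, standard error 0.21).

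CDEF1, a cutinase, had -1.51 (standard error 0.33), with -1.10 from replicates 1 and 2 and -2.18 from replicates 3 and 4. Its induced libraries, at 13.8 to 17.0 CPM, overlapped WT without Dex, at 15.4 to 38.4 CPM. MYB106, a regulator of epidermal cell outgrowth and cutin genes, had -1.52 (standard error 0.33). SHN2, a regulator of wax and cutin, was above WT without Dex, at 0.403 to 0.634 against 0.134 to 0.222 CPM, and at 0.0765 to 0.363 CPM on Dex (-2.06, standard error 0.49). The summed level of the cuticle list was 1910 to 2081 CPM in the induced line and 2165 to 2846 CPM in all other libraries. The guard cell list, another epidermal cell type, was at 1894 to 1975 CPM in the induced line and 2285 to 2716 elsewhere, with 1 of 20 members called lower and 0 higher. That list had 7 members called lower from replicates 1 and 2 and 0 from replicates 3 and 4.

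Trichome and epidermal identity genes, also listed after the values were seen, had 5 of 18 called lower and 0 higher, with a median of -0.59. MYB0, known as GLABRA1 and required to start trichomes, was at 0.503, 0.804, 0.612 and 0.543 CPM in the induced line and at 1.60 to 3.00 CPM in every other library (-1.96, standard error 0.29, adjusted p = 0.00052, edgeR). GL2, which acts after it, was at 4.35, 3.94, 3.88 and 2.81 CPM against 5.07 to 9.42 (-1.43, standard error 0.19). MYB23 had -1.42 (standard error 0.29). EGL3 and CPC, the partner and the inhibitor in the same circuit, had -1.15 and -1.11, and their calls were lost without any 1 of 8 and of 11 libraries. For CPC the adjusted p-values were 0.0530 to 0.0846 (edgeR), and for EGL3 they ran from 0.0323, at a value of -0.97, to 0.0603.

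Growth genes of young leaves were also called lower. ANT, an AP2-type factor that keeps organ cells dividing, was at 14.6, 13.8, 16.3 and 14.2 CPM in the induced line and at 19.1 to 37.2 CPM in all others (-1.32, standard error 0.24, adjusted p = 0.0027, edgeR). Of 10 growth-regulating factors, a family set up as a list after its values were seen, 4 were called lower and 0 higher, with all 10 values below 0 and a median of -0.99. GRF4 was at 3.52 to 4.64 CPM in the induced line against 3.88 to 8.50 elsewhere (-1.34, standard error 0.25), with -0.70 and -2.11 in the 2 pairs of replicates. GRF9 had -1.22 (standard error 0.27), and GRF5 had -1.14, with its call lost with any 1 of 12 libraries left out (adjusted p between 0.0558 and 0.0991, edgeR).

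Cell division genes had 0 of 37 called, although 37 of 37 values were below 0, with a median of -0.48 that was -0.17 in replicates 1 and 2 and -0.97 in replicates 3 and 4. Replicates 3 and 4 alone gave 16 called lower. The medians of that list were 0.25 for Dex in WT and -0.29 for Dex in the line. Stomatal lineage genes had 1 of 19 called, MYB88, a gene that ends divisions in the lineage, which was at 23.7 to 28.4 CPM in the induced line and at 7.37 to 13.1 CPM elsewhere (1.42, standard error 0.23), while the median of the list was -0.49.

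Hormone and environmental lists had few calls, beside 3.24% of all tested genes called higher. Early auxin genes had 3 of 109 called higher and 5 lower (0.855% of all tested genes were called lower), with a median of -0.06 that was -0.41 in replicates 1 and 2 and 0.17 in replicates 3 and 4. IAA1, a repressor of auxin response, was at 4.64 to 6.42 CPM in the induced line and at 12.1 to 21.3 elsewhere (-1.18, standard error 0.24). ACS4, an enzyme of ethylene synthesis, was at 0.182 to 0.378 against 1.12 to 3.18 (-2.41, standard error 0.46), and GH3.1, which conjugates auxin to amino acids, was at 0.0945 to 0.384 CPM against 0.34 to 1.87 (-2.52, standard error 0.62), where the lowest WT library overlapped. Brassinosteroid and cold-regulated genes had 0 called of 24 and 0 of 19. Photosynthesis had 1 of 45, LHCB4.3, an antenna protein, at 211 to 237 CPM against 95.1 to 129 (1.23, standard error 0.11), with a list median of -0.08. ABA and drought genes had 2 of 40 called higher and 0 lower, with a median of 0.10. The clock list had 1 of 21 called higher, jasmonate 1 of 32 and salicylic acid 1 of 23, with 0 lower in each. The jasmonate median was -0.62 in replicates 1 and 2 and 0.72 in replicates 3 and 4.

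**Figure D4:**
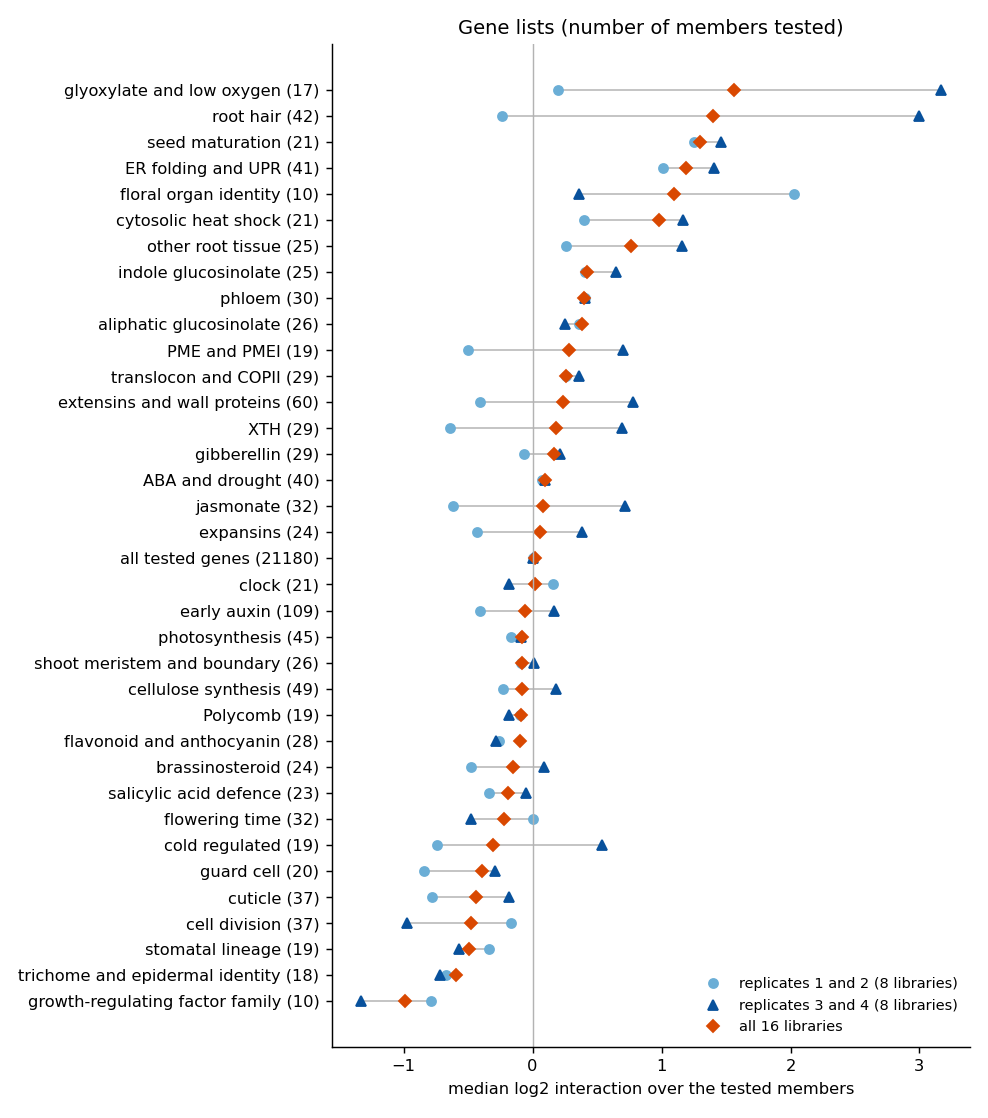
Median log2 interaction of each gene list (x axis) from all 16 libraries, from replicates 1 and 2 and from replicates 3 and 4, ordered by the first, with all tested genes near 0. ER folding is above 1 in all 3 sets, cuticle, trichome and growth-regulating factor genes are below 0 in all 3, and root hair and the glyoxylate and low oxygen list are near 0 in replicates 1 and 2 and about 3 in replicates 3 and 4.

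Over the 103 called genes looked at one by one, 85 kept their call in each of the 16 fits that left out 1 library, and 18 lost it in at least 1. The 29 alternatives include the test against a log2 change of 1 and each pair of replicates. Of the 103, 41 kept their call in every alternative that gave them a value. Some filters left out genes of low counts. The number of genes called higher ranged from 505 without replicate 4 of the line on Dex to 885 without replicate 1 of the same group, and the number called lower from 138 without replicate 4 of WT without Dex to 243 without its replicate 1.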

How the data were processed

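Shoot RNA of 16 libraries was compared, 4 replicates in each of 4 groups. The authors used Trimmomatic for trimming, STAR for alignment to TAIR10 and RSEM for the expected counts per gene that they deposited. The authors also deposited counts over exons from featureCounts, used here as an alternative. Libraries were directional and selected for polyA. The paper describes molecular identifiers, and whether reads were collapsed by them is not given in the sources used here. The labels swap genotype and treatment, so samples were mapped by title. Expected counts were rounded (3.82% were not whole).
One model was fitted with edgeR 4.0.16 (R 4.3.3), with its filter by expression, TMM scaling and quasi-likelihood test, and Benjamini-Hochberg adjustment over 21180 genes. A gene was called at an adjusted p under 0.05 and an absolute log2 value of 1 or more, as in the methods of the study, which used DESeq2. Standard errors are the size of the log2 value over the square root of F. CPM are counts per 1000000 of the TMM-scaled library. In tests on simulated data for this interaction (21180 genes) 90 of 100 changes of 1.5 and 96 of 100 of 2.5 were recovered. There 3.12% of the calls were false. The simulated replicates were independent, without the split between pairs of replicates, and only genes with a mean of at least 1 CPM were changed. The share of false calls in the real libraries was therefore not measured.
The contrast, its members and 30 gene lists were chosen with earlier results of these data known, and 5 lists (cuticle, trichome, translocon and COPII, glyoxylate and low oxygen, growth-regulating factors) and the ERSE-II motif after the values were seen. Named genes are EXPA1, the 12 largest values in each direction at a mean of at least 2 CPM, the 12 smallest adjusted p, up to 4 genes per list and wall genes the study names. Of those, not every gene is described, and members named beyond the rule were chosen after their values were seen. Counts of all 24 replicate pairs within groups differed beyond sampling noise, with a chi-square of at least 4.21 per degree of freedom. P-values set each difference against the spread between these replicates, and the main model took the 4 replicates of a group as independent. Replicates 1 and 2 stood apart from replicates 3 and 4 in both WT groups and the line on Dex. Standard errors and adjusted p-values do not allow for that split. Alternatives were the exon counts, DESeq2 1.42.0, other scalings and filters, other thresholds, all 24 libraries, a replicate block, each pair of replicates and each library left out. Promoters were read from the RefSeq genome with gene starts from the authors' exon table, whose exons matched those of RefSeq exactly in 80.9%. The count of called genes in other root tissue is not reported here.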

Additional observations from a re-analysis of the deposited data

Results flagged for a closer look

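In 17 of 464 groups of 4 libraries, over 116 genes, 1 library lay far from the other 3 (Dixon's criterion, which chance meets in about 1 of 20 groups). In the line without Dex these were replicate 4 for BZIP60 (19.1 CPM) and HIPP27 (0.579), replicate 1 for HB1 (2.51), LHCB4.3 (99.1), BGLU18 (78.3), SHN2 (0.403) and GH3.1 (1.87), and replicate 3 for AT5G35660 (0.131). In the line on Dex they were replicate 2 for NAC086 (1.37), AT2G15020 (8.82) and PAP85 (8.87, with the nearest library at 2.32), and replicate 3 for AT1G66100 (2.96). In WT on Dex they were replicate 3 for AT2G15020 (63.1), SPL15 (2.24) and CYP86A4 (10.4) and replicate 2 for PI (0.103), and in WT without Dex replicate 3 for MBF1C (13.6). PAP85, a vicilin gene, was not called for the interaction (1.54, adjusted p = 0.3, edgeR). AT5G35660, a glycine-rich protein gene, was called at 4.83, and at 2.96 without replicate 3 of the line on Dex the call was lost.

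The response to Dex differed between the EXPA1 OE line and WT for 868 genes by the interaction test of edgeR, which is the comparison described above.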

How the results depend on the processing

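The direction of every called gene looked at was kept in each of the 29 alternatives that gave it a value, except ADH1 at -0.06 with replicates 1 and 2 only, and the cause was not tested. The interaction gave 687 genes higher and 181 lower. A test against a log2 change of 1 gave 100 and 14, no fold threshold 1428 and 751, replicates 1 and 2 only 379 and 412, and replicates 3 and 4 only 1779 and 843. The share of calls that were higher was 79.1%, and 47.9%, 67.8%, 65.5% and 87.7% with replicates 1 and 2, replicates 3 and 4, no fold threshold and the test against 1. DESeq2 gave 924 and 231, with 863 of the 868 calls kept. Leaving out 1 library gave 505 to 885 higher and 138 to 243 lower.

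The Dex effect in the line gave 1519 calls, 935 with at least 10 counts in every library, 255 in the test against 1 and 5748 without the fold threshold (1302 to 1695 with 1 library left out). That in WT gave 3 calls, 23 with DESeq2, 5 with library totals only, 0 in the test against 1, 12 with all 24 libraries, 1 with the replicate block, 547 and 1160 with each pair of replicates, 13 without the fold threshold and 0 to 4 with 1 library left out. The line against WT gave 1076 calls on Dex, 706 with at least 10 counts, 205 in the test against 1 and 4977 without the fold threshold (849 to 1237). Without Dex it gave 481, with 781, 233, 121 and 925 for DESeq2, at least 10 counts, the test against 1 and no fold threshold, 1357 with replicates 3 and 4 only, and 231 to 597 with 1 library left out.

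Same-numbered libraries correlated at -0.377 to 0.5 in their deviations from the group means, over 0.1 in 4 of 24 pairs. These 4 were all those between the line and WT on Dex (0.165 to 0.5), and for that comparison the replicate block gave 1020 calls against 1076. The other 5 pairs of groups had no value over 0.1, so the numbers were not taken as a pairing for the interaction. With the replicate block the interaction gave 568 higher and 160 lower, 696 of them among the 868. Of the genes looked at, SPL9, GASA1, EXPA11, XTH24, MLS, ADH1, HB1, AT5G35660, OLEO2, EGL3 and CPC were no longer called (adjusted p of 0.0501 to 0.108, edgeR), and called members went from 7 to 4 for root hairs, 7 to 2 for glyoxylate and low oxygen and 5 to 3 for trichomes. Depth limits genes under 1 CPM most.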
